A study of Mus musculus with 12 samples.

Results

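Aminoacyl-tRNA synthetases are the enzymes that join each amino acid to its transfer RNA. The 36 genes described here were taken by name from a fixed list of the family: 20 encode cytosolic enzymes or their subunits, and 16, with symbols ending in 2, encode mitochondrial enzymes. All 36 were found by symbol and Ensembl ID among the 21728 genes of the count files, all were listed in each of the 12 libraries, and all passed the filter on low counts in every comparison. The list follows the function of the genes and not a measured value, although it was chosen with earlier results of these data known.

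The libraries are bulk RNA-seq of mouse cells (C57BL/6 embryonic stem cells with a Blimp1-mVenus and a Stella-ECFP reporter) in 4 groups of 3. Untreated EpiLCs (epiblast-like cells, a culture model of the early post-implantation epiblast) were kept 48 h in EpiLC medium, and their libraries are described as water controls. BPA EpiLCs had 100 nM bisphenol A, a plasticiser that binds oestrogen receptors weakly, added 24 h after seeding for 24 h. Untreated and BPA-arm PGCLCs (primordial germ cell-like cells, a model of the first germ cells) came from aggregates of EpiLCs. They were sorted at day 5 as cells positive for both reporters. The titles of the BPA-arm PGCLC libraries give 100 nM BPA, and the labels do not state if the PGCLC media held BPA too. All 4 groups carry both reporters and come from 1 stem cell line. Nothing in the labels describes the replicates of a group as separate cultures, and each p-value therefore reflects library-to-library spread that may be technical.

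Each cytosolic synthetase serves ribosomes outside the mitochondria, and the mitochondrial set, made from nuclear genes and imported, serves protein synthesis inside them. Kars and Gars each encode both the cytosolic and the mitochondrial enzyme for lysine and glycine, Eprs is a fused enzyme for glutamate and proline, and Farsa and Farsb are the subunits of the cytosolic phenylalanine enzyme. Mitochondria have no glutamine enzyme of their own: Ears2 loads glutamate, and an amidotransferase converts it. Eprs, Iars, Lars, Qars, Mars, Kars, Rars and Dars form the multisynthetase complex with the scaffold proteins Aimp1, Aimp2 and Eef1e1. When amino acids run short, uncharged transfer RNA activates the kinase GCN2, translation of the transcription factor ATF4 rises, and ATF4 with C/EBP partners binds amino acid response elements, in many cytosolic synthetase genes among others.

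Letters of the core of such elements were searched in the start regions of the family, and the matches are shown because the cytosolic and mitochondrial genes are compared throughout. RefSeq start regions (GRCm38.p6, 250 bases before to 50 after the annotated start) were matched by symbol for 27 of the 36 genes, 13 cytosolic and 14 mitochondrial. The letters TGATGNAA, searched on both strands, occurred in 5 of the 13 cytosolic and 0 of the 14 mitochondrial regions, and in 4.51% of the 27025 mouse genes with a region of this length. The difference between the 2 sets was not tested, and 9 members had no matched region. The genes were Aars, Gars, Iars, Tars and Yars. For each gene 1 match, the nearest to its start, is printed 5′ to 3′ on the gene's strand, with the match in capitals; all printed matches but that of Yars are these letters read on the other strand.
Aars (alanine), chr8:111033840-111033869, plus strand: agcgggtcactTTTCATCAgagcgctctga
Gars (glycine), chr6:55037960-55037989, plus strand: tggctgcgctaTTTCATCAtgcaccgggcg
Iars (isoleucine), chr13:49682126-49682155, plus strand: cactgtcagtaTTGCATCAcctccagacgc
Tars (threonine), chr15:11399655-11399684, minus strand: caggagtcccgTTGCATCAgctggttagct
Yars (tyrosine), chr4:129189895-129189924, plus strand: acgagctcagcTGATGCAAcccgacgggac
Counted from the annotated start, the printed matches begin at positions 9 in Aars, -30 in Gars, 7 in Iars, -15 in Tars and 3 in Yars. Of the other motifs searched on both strands, CACGTG (the E-box of MYC and MITF-type factors) was in 4 of 13 cytosolic regions (Aars, Farsb, Iars, Tars) and 1 of 14 mitochondrial ones (Ears2), against 8.09% of genes. GGGCGG, a GC box, was in 8 of 13 and 11 of 14, against 38.2%, and TGACGTCA, the cyclic AMP response element, was in none of either set, against 2.03%. A match is a string of letters and not a measured binding site.

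Depth was 11785338 to 34309195 counts in genes per library, and the PGCLC libraries were the deeper ones. Of the fixed germ cell markers, Prdm14 was unlisted in all 6 EpiLC libraries and the sum of 8 genes was 99.6 to 108 CPM (counts scaled to library size with TMM factors, the unit of every level here) in EpiLCs and 975 to 1340 in PGCLCs. Among formative epiblast markers Dnmt3b was 522 to 718 CPM in EpiLCs, while Fgf5 was only 4.77 to 7.38 CPM there and Otx2 was higher in PGCLCs. The sum of 10 endoderm markers was 11.5 to 22.0 CPM in EpiLCs, 842 to 1319 in untreated PGCLCs and 2942 to 6421 in BPA-arm PGCLCs, so the sorted cells carry transcripts of another lineage. Untreated EpiLC replicate 3 stands apart from the other EpiLC libraries: 14.4% of its counts were in ribosomal protein genes, against 8.41% to 9.49%. Its description in the labels also carries another number than its title, which was followed. Sample names follow one scheme in EpiLCs and others in each PGCLC arm, so a batch of libraries cannot be told apart from stage or, in PGCLCs, from BPA.

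The first question was how much of each enzyme's transcript the cells held. Per kilobase of exon, the cytosolic genes had a median of 72.2 CPM in untreated EpiLCs and the mitochondrial genes other than Lars2 a median of 7.63. In untreated EpiLCs the highest levels per kilobase were those of Gars, at 191 ± 21.0 (SD, n = 3), Kars, at 171 ± 26.1, and Nars, the asparagine enzyme, at 117 ± 4.62. Gars and Kars overlapped between libraries, while Kars and Nars did not. The lowest cytosolic gene was Cars, the cysteine enzyme, at 29.9, above the 17.5 of Rars2, the highest mitochondrial gene other than Lars2. At the foot of the order stood Wars2, the mitochondrial tryptophan enzyme, at 1.07. Neighbours in this order overlapped in 27 of 35 pairs, so most single ranks do not differ beyond the spread of 3 libraries. The length used joins all annotated exons of a gene, from 2447 bases in Hars to 18102 in Eprs. It may exceed the transcript the cells made, so levels per kilobase and their order also depend on the annotation.

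In untreated PGCLCs the medians per kilobase were 49.2 for cytosolic genes and 6.89 for mitochondrial genes other than Lars2. Gars was again high, at 133, followed among the cytosolic genes by Kars, at 87.0, and Nars, at 86.6. Iars2, the mitochondrial isoleucine enzyme, reached 21.9 per kilobase, beside 21.4 for the lowest cytosolic gene, Cars. The libraries of Iars2 and Cars overlapped, so their order is not settled. Lars2, the mitochondrial leucine enzyme, stood above all others at 256. That gene is treated separately, beside the values of 3 ribosomal RNA-like transcripts that were also highest in untreated PGCLCs.

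**Figure D1:**
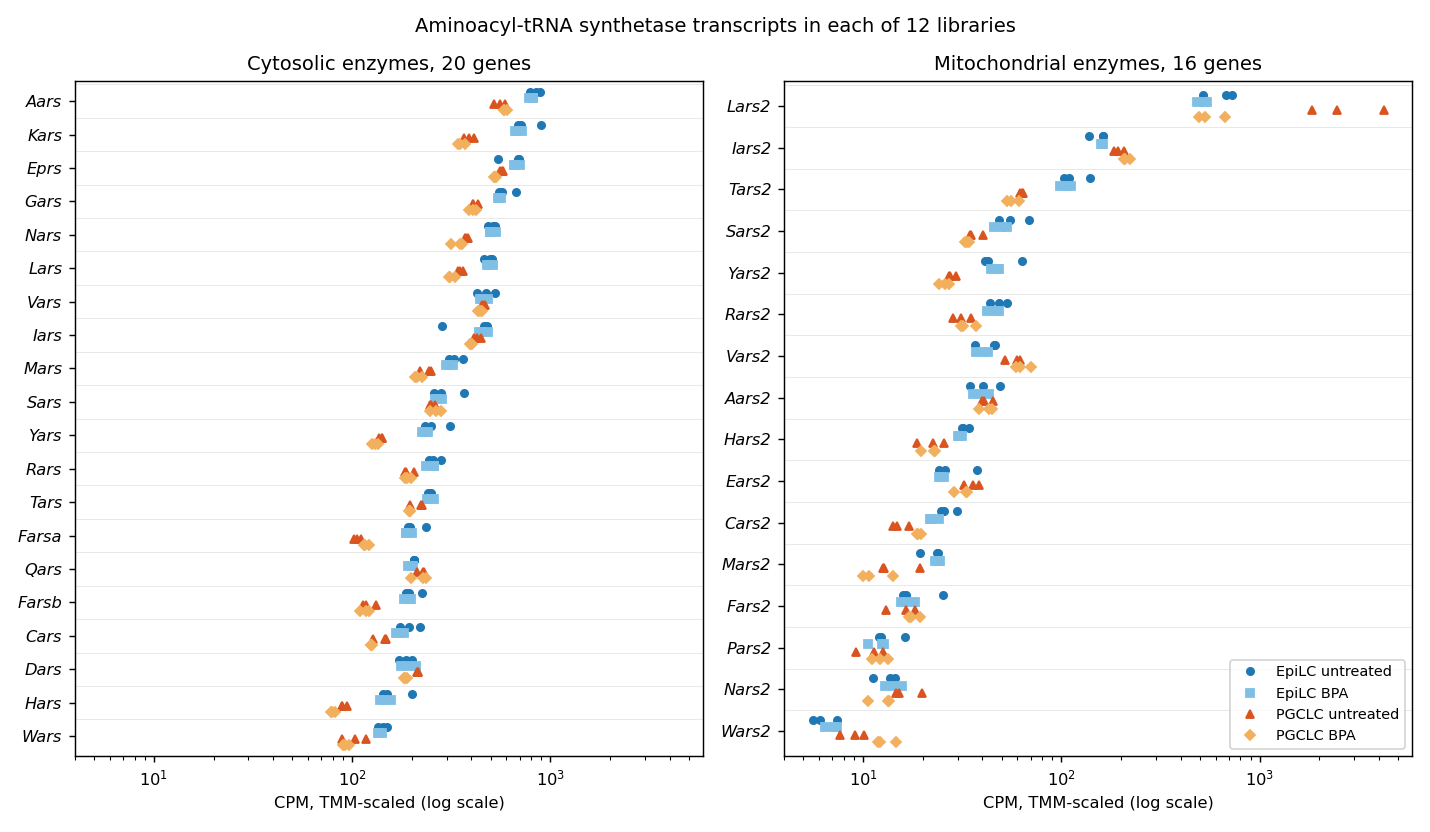
Level of each synthetase gene in every library, in TMM-scaled CPM on a log axis, without correction for length; rows are genes in order of their mean in untreated EpiLCs, and symbols and colours mark the 4 groups of 3 libraries. Cytosolic genes lie mostly to the right of mitochondrial ones, the PGCLC libraries of Kars, Yars, Hars and Farsa lie left of their EpiLC libraries, and the 3 untreated PGCLC libraries of Lars2 stand alone between 1836 and 4233 CPM.

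Summed over the 20 cytosolic genes, synthetase transcripts made up 7431 ± 279 CPM in untreated EpiLCs and 5577 ± 83.8 in untreated PGCLCs (SD, n = 3). The same sum was 7183 ± 147 in BPA EpiLCs and 5306 ± 63.5 in BPA-arm PGCLCs. Every EpiLC library, from 7036 CPM upward, was above every PGCLC library, of which the highest held 5632 CPM. Over the 15 mitochondrial genes without Lars2, the sums were 674 ± 55.6 CPM in untreated EpiLCs and 639 ± 11.6 with BPA, and 594 ± 15.2 in untreated PGCLCs and 608 ± 10.2 in the BPA arm. The cytosolic sum was thus 11.1 ± 0.489 and 11.2 ± 0.348 times the mitochondrial one in untreated and BPA EpiLCs, and 9.39 ± 0.175 and 8.73 ± 0.138 times in the PGCLC groups. Kars and Gars, which encode the enzymes of both compartments, are counted as cytosolic in these sums. Their means were 765 and 597 CPM in untreated EpiLCs and 388 and 414 in untreated PGCLCs. Their part in the ratio was not tested. Sums over a chosen list were not tested. In bulk libraries, fewer cells of a type and less RNA per cell cannot be told apart.

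**Figure D2:**
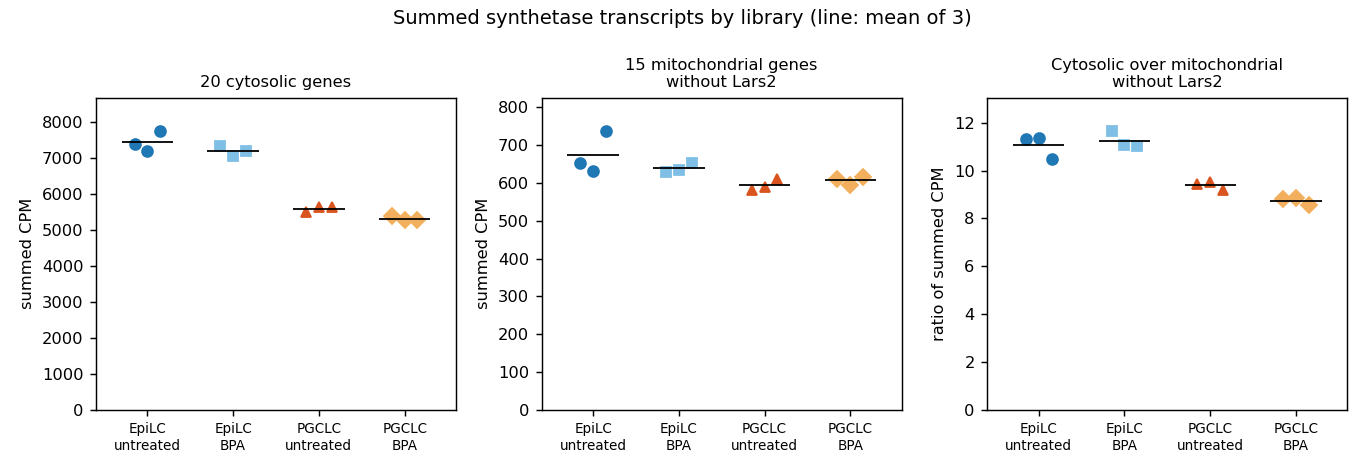
Summed TMM-scaled CPM of 20 cytosolic genes (left), of 15 mitochondrial genes without Lars2 (middle) and their ratio (right) in each library of the 4 groups; points are libraries and lines are means of 3, on axes that start at 0. The cytosolic sums of EpiLCs, at 7036 CPM or more, lie above those of PGCLCs, at 5632 CPM or less, and the ratio is lower in PGCLCs.

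The comparison of untreated PGCLCs with untreated EpiLCs asks how the family differs between the stages. Among cytosolic genes 13 of 20 were lower in PGCLCs at an adjusted p under 0.05 and 0 were higher, with a median log2 difference of -0.47. Of the 17608 genes tested, 55.6% were called in this comparison, 25.2% lower and 30.4% higher, and their median was 0.07. The 65% of cytosolic genes called lower is therefore read against a background of 25.2%. Of the mitochondrial genes 7 of 16 were lower and 4 higher, with a median of -0.27 (-0.29 without Lars2). This mitochondrial median was -0.12 without untreated EpiLC replicate 3 and -0.16 without untreated PGCLC replicate 2. Groups did not overlap in 16 of 20 cytosolic genes, 14 of them lower in PGCLCs, against 60.3% of all genes, 28.2% lower; 12 of 16 mitochondrial genes did not overlap, 7 of them lower. Endoderm marker sums also differed between the stages, as given above, and their part in these differences was not tested.

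Within the multisynthetase complex, Kars (lysine, chr8:111993443-112011323 in mm10) showed the largest fall. Its levels were 713, 684 and 899 CPM in untreated EpiLCs and 365, 411 and 389 in untreated PGCLCs. The groups did not overlap, and the highest EpiLC library was replicate 3. The log2 change was -0.98 ± 0.11 (SE), with an adjusted p of 1.08e-05 (edgeR quasi-likelihood test, Benjamini-Hochberg over all genes, as for each adjusted p below). Of the 8 complex genes, Kars, Mars (methionine, -0.48), Lars (leucine, -0.48) and Rars (arginine, -0.43) were called lower. Eprs (-0.17), Qars (glutamine, 0.12), Iars (0.07) and Dars (aspartate, 0.20) were not called by edgeR with TMM factors. Eprs was called lower by DESeq2 (-0.24, adjusted p = 0.00637) and by edgeR with RLE factors, another scaling (-0.24, adjusted p = 0.0378). The complex genes had a median of -0.30, and the 12 cytosolic genes outside it a median of -0.50 with 9 of 12 lower. The difference between these subsets was not tested. The scaffold genes were also lower, 3 of 3: Eef1e1 at -0.87 ± 0.09 (adjusted p = 1.16e-05), Aimp1 at -0.70 ± 0.16 (adjusted p = 0.00255) and Aimp2 at -0.35 ± 0.10 (adjusted p = 0.00991).

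Outside the complex, both subunits of the phenylalanine enzyme fell. Farsa, the alpha subunit, was 196, 191 and 237 CPM in untreated EpiLCs and 111, 102 and 106 in untreated PGCLCs, a log2 change of -0.97 ± 0.10 (adjusted p = 5.22e-06). Farsb, the beta subunit, was 188, 194 and 224 CPM against 113, 117 and 131, a change of -0.75 ± 0.10 (adjusted p = 4.78e-05). In both genes all 3 EpiLC libraries were above all 3 PGCLC libraries. Yars, the tyrosine enzyme with a TGATGNAA match at position 3, was 249, 232 and 311 CPM against 141, 141 and 136, a change of -0.92 ± 0.10 (adjusted p = 1.53e-05). Hars, the histidine enzyme, was 149, 144 and 201 CPM against 89.4, 94.1 and 88.6, a change of -0.86 ± 0.12 (adjusted p = 8.65e-05). For Yars and Hars, too, the groups were apart, with untreated EpiLC replicate 3 the highest of the 6. Aars, the alanine enzyme, was 847, 789 and 885 CPM against 518, 590 and 555, a change of -0.60 ± 0.08 (adjusted p = 4.80e-05), again without overlap.

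The remaining cytosolic genes called lower were Gars (-0.53), Cars (-0.48), Wars (tryptophan, -0.47) and Nars (-0.43). Sars (serine, -0.25), Tars (-0.19) and Vars (valine, -0.05) outside the complex were not called by edgeR with TMM factors. Tars was called lower by DESeq2 (-0.26, adjusted p = 5.17e-05), with RLE factors (-0.26, 0.0133), by limma-voom (-0.20, 0.0453) and with a filter of 1 CPM in 3 libraries (-0.20, 0.0457). Sars was called lower by DESeq2 (-0.32, adjusted p = 0.026) and with RLE factors (-0.33, 0.0461). DESeq2 and RLE factors thus each gave 16 cytosolic genes lower in place of 13, and limma-voom 14. The cytosolic genes with a TGATGNAA match spanned much of this range, from -0.92 in Yars to 0.07 in Iars. The value of Iars was -0.18 without untreated EpiLC replicate 3, and only 13 of the 20 cytosolic genes had a start region to search.

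Mitochondrial genes went both ways. Tars2, the threonine enzyme, was 109, 103 and 139 CPM in untreated EpiLCs and 61.9, 63.4 and 63.7 in untreated PGCLCs, a log2 change of -0.89 ± 0.12 (adjusted p = 4.76e-05). Yars2, the tyrosine enzyme, was 41.2, 42.8 and 63.5 CPM against 27.1, 27.4 and 29.4, a change of -0.81 ± 0.15 (adjusted p = 0.000706). The PGCLC libraries of both genes lay close together and below every EpiLC library. Cars2, the cysteine enzyme, was 25.6, 24.8 and 29.8 CPM against 14.9, 17.1 and 14.1, a change of -0.80 ± 0.12 (adjusted p = 0.000122). Sars2, the serine enzyme, was 55.4, 48.5 and 68.9 CPM against 35.2, 40.2 and 34.6, a change of -0.65 ± 0.13 (adjusted p = 0.00119). Cars2 and Sars2 did not overlap between the groups either. Rars2, the arginine enzyme, was 43.7, 48.7 and 53.3 CPM against 28.5, 35.0 and 31.1, a change of -0.62 ± 0.12 (adjusted p = 0.000994), also without overlap. Mars2 (-0.59) and Hars2 (-0.55) were called lower as well.

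Iars2 (0.34, adjusted p = 0.00645), Vars2 (0.43, adjusted p = 0.0103), Wars2 (0.49, adjusted p = 0.0278) and Lars2 were called higher. Wars2 was 6.05, 7.41 and 5.57 CPM in untreated EpiLCs and 9.15, 7.62 and 10.1 in untreated PGCLCs, so the nearest libraries differed by little. Iars2, Vars2 and Wars2 lost the call when the 6 untreated libraries were fitted alone, with adjusted p of 0.0785, 0.0571 and 0.111. Wars2 also lost it without EpiLC untreated replicate 1 (adjusted p = 0.0901) or 3 (0.113), EpiLC BPA replicate 2 (0.0557), or PGCLC untreated replicate 1 (0.0559) or 3 (0.0893). Mars2 lost it without EpiLC untreated replicate 1 (adjusted p = 0.0649) or 2 (0.0562), or PGCLC untreated replicate 2 (0.0734) or 3 (0.0743). None of these fits changed the direction of these genes.

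Untreated EpiLC replicate 3 bears on several genes. Iars was 463, 479 and 283 CPM in untreated EpiLCs and 412, 426 and 448 in PGCLCs: replicate 3 was the lowest of the 6 and the others were the highest. Without it, Iars was lower in PGCLCs, at -0.18 (adjusted p = 0.0184), in place of 0.07. Eprs (-0.32, adjusted p = 0.000185) and Tars (-0.24, adjusted p = 0.00845) were then also called lower, which gives 16 cytosolic genes lower, and Ears2 (0.45, adjusted p = 0.00422) was called higher. Tars was also called lower without EpiLC BPA replicate 2 (adjusted p = 0.0407). Without EpiLC untreated replicate 2, Dars was called higher (0.25, adjusted p = 0.0483) and Sars lower (-0.36, adjusted p = 0.0231).

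**Figure D3:**
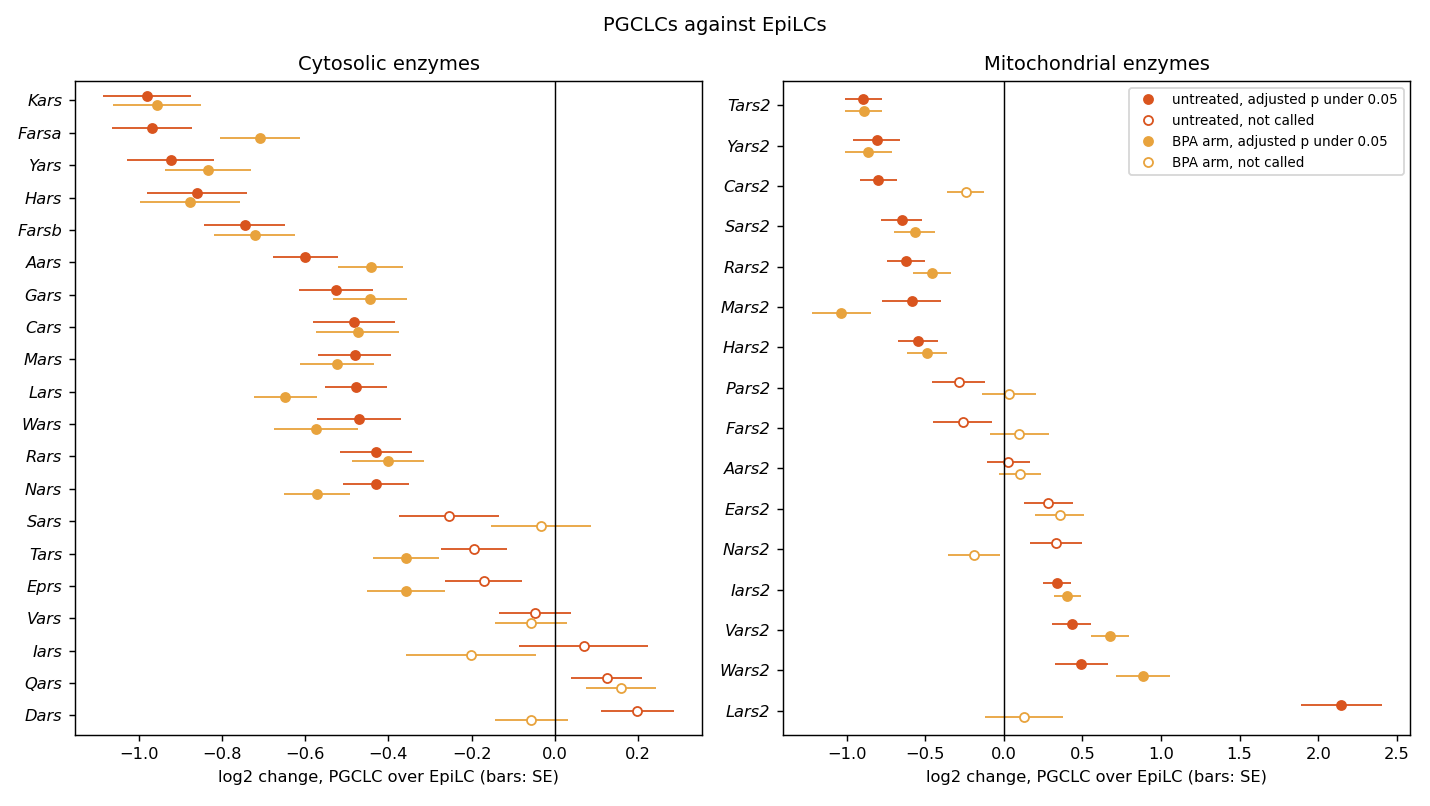
Log2 change of each gene in PGCLCs over EpiLCs, with its SE, in the untreated libraries and in the BPA arm; filled points had an adjusted p under 0.05, and the 2 panels have different x axes. Called cytosolic genes all lie left of 0, while mitochondrial genes spread from -1.03 (Mars2, BPA arm) to 2.15 (Lars2, untreated).

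The BPA arm holds the same stage comparison in 6 other libraries, although the spread was estimated over all 12. Here 15 of 20 cytosolic genes were lower and 0 higher, with a median of -0.46, against 57.5% of all genes called, 25% lower and 32.5% higher, and a median of all genes of 0.13. Of the mitochondrial genes, 6 were lower and 3 higher, with a median of -0.08 (-0.19 without Lars2). By edgeR with TMM factors the same 13 cytosolic genes were lower in both arms, Eprs and Tars passed in the BPA arm and not in the untreated libraries (where DESeq2 and RLE factors called both), and Dars, Iars, Qars, Sars and Vars were called in neither. Whether a gene's change differs between arms is the interaction tested below, and neither Eprs (adjusted p = 0.607) nor Tars (0.585) passed it. Kars was 684, 666 and 722 CPM in BPA EpiLCs and 343, 352 and 372 in BPA-arm PGCLCs, a change of -0.96 ± 0.11 (adjusted p = 1.09e-05) without overlap. Hars followed at -0.88, Yars at -0.83, Farsb at -0.72, Farsa at -0.71 and Lars at -0.65. In this arm, without untreated EpiLC replicate 3 in the shared estimate of spread, Iars (-0.21, adjusted p = 0.00352), Cars2 (-0.26, 0.0471) and Ears2 (0.34, 0.00972) were also called. Without PGCLC BPA replicate 3, Qars was called higher (0.23, adjusted p = 0.0302).

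Among mitochondrial genes, Tars2, Yars2, Sars2, Rars2, Mars2 and Hars2 were lower in both arms, and Iars2, Vars2 and Wars2 were higher in both. Mars2, the methionine enzyme, was 24.4, 24.3 and 23.0 CPM in BPA EpiLCs and 10.8, 10.04 and 14.1 in BPA-arm PGCLCs, a change of -1.03 ± 0.19 (adjusted p = 0.00059). Wars2 was 7.41, 6.42 and 7.12 CPM against 14.7, 11.9 and 12.1, a change of 0.88 ± 0.17 (adjusted p = 0.000854). Vars2, the valine enzyme, was 39.7, 37.1 and 42.8 CPM against 61.9, 58.9 and 70.2, a change of 0.67 ± 0.12 (adjusted p = 0.000556). None of these 3 genes overlapped between the stages in this arm. Cars2 (-0.24, adjusted p = 0.0918) and Lars2 (0.13, adjusted p = 0.677) were not called here. Cars2 was called lower by DESeq2 (-0.31, adjusted p = 0.0238), with RLE factors (-0.31, 0.0474) and in the 6 libraries of the arm alone (-0.25, 0.0312).

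For 13 amino acids the family has one gene of each compartment by name, and the calls of both genes can be set side by side. By edgeR with TMM factors, in the untreated libraries 5 pairs were lower in both members: cysteine, histidine, methionine, arginine and tyrosine. In 2 pairs, alanine and asparagine, only the cytosolic gene was called, and it was lower; Aars changed by -0.60 and Aars2 by 0.03. In 2 others, serine and threonine, only the mitochondrial gene was called, and it was lower; Tars2 changed by -0.89 and Tars by -0.19. With DESeq2 or RLE factors, Sars and Tars were called lower too, so that both genes of these pairs were lower. For leucine and tryptophan the cytosolic gene was lower and the mitochondrial one higher; Wars changed by -0.47 and Wars2 by 0.49. For isoleucine and valine the mitochondrial gene was higher and the cytosolic one was not called. By the same test in the BPA arm, Cars2 and Lars2 were not called and Tars was lower. The cysteine, leucine and threonine pairs thus fell in another class there by this test. Cars2 was called lower in that arm by DESeq2, with RLE factors and in its 6 libraries alone, as given above. The edgeR interaction passed for Lars2 (adjusted p = 0.0171) and not for Cars2 (0.143) or Tars (0.585). In the untreated libraries the calls of Mars2, Iars2, Vars2 and Wars2 were lost in some fits, as given above. The difference of 2 genes' changes was not tested.

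The leucine, histidine and methionine pairs carry limits of counting. For leucine, reads of other repeated sequence may be counted in Lars2, as described below. Hars (chr18:36766528-36783205, minus strand) and Hars2 (chr18:36783008-36792562, plus strand) overlap at their starts on opposite strands. Exons of Mars overlap those of Ddit3, which is on the other strand. Opposite-strand exons also overlap in Aars, Cars, Farsb, Yars, Cars2, Ears2, Fars2, Iars2, Nars2 and Vars2, and Aars shares exon sequence with Exosc6 on its own strand. The library kit keeps the strand, but no source used here gives the strand option of the counter, so reads of such neighbours may not be separated.

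Aars, Farsa, Kars and Cars2 lie on chromosome 8, whose genes as a whole differed between the arms. The 940 chromosome 8 genes tested had a median of -0.31 for PGCLCs over EpiLCs in the untreated libraries and of -0.04 in the BPA arm. Against that median, Kars was lower by a log2 difference of -0.67 in the untreated libraries and -0.92 in the BPA arm, and Farsa by -0.66 and -0.67. For Aars these differences were -0.29 and -0.41, and for Cars2 -0.49 and -0.21. The part of the chromosome in these genes' values was not tested.

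Genes that work with the synthetases were taken from lists, whose counts stand against 25.2% of all genes lower and 30.4% higher in the untreated libraries and 25% and 32.5% in the BPA arm. In the 23-gene amino acid response list (ATF4 targets and the factor itself), 15 genes were lower in untreated PGCLCs and 4 higher. The smallest p-values were those of Mthfd2, a mitochondrial folate enzyme (-1.76 ± 0.09, adjusted p = 2.47e-08), Phgdh, the first enzyme of serine synthesis (-2.26 ± 0.14, adjusted p = 1.47e-07), and Slc1a5, a glutamine transporter (-1.17 ± 0.08, adjusted p = 2.52e-07). A further pair was chosen after its values were seen: Atf4 itself fell by 1.49, and Asns, the asparagine synthetase of metabolism and a standard ATF4 target, rose by 0.79 (log2). In the BPA arm the counts were again 15 lower and 4 higher. Of the 6 genes in the list of cytosolic elongation factors, 6 were lower in untreated PGCLCs and 5 in the BPA arm. Among 9 mitochondrial translation factors 3 were lower and 1 higher in the untreated libraries, and 4 lower and 0 higher in the BPA arm. The amidotransferase and formylation list had 2 of 4 lower, Qrsl1 (-0.94) and Mtfmt (-0.59), and in the BPA arm 1 of 4, Qrsl1 (-1.08).

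BPA exposure of EpiLCs was compared with untreated EpiLCs in their 6 libraries. No synthetase gene was called by edgeR: 0 of 36 at an adjusted p under 0.05 and 0 of 36 at an unadjusted p under 0.05. Of all 15252 genes, 0% were called and 0.774% had an unadjusted p under 0.05. DESeq2 called 16 genes and no synthetase gene, and limma-voom and limma-trend called no synthetase gene. Log2 changes ran from -0.30 in Lars2 to 0.17 in Iars, with medians of -0.04 for cytosolic and -0.08 for mitochondrial genes and 0.00 for all genes. Iars was 467, 480 and 278 CPM in untreated EpiLCs, lowest in replicate 3, and 487, 455 and 442 in BPA EpiLCs. Leaving out 1 library at a time gave changes of -0.05 to 0.31 for Iars. No cytosolic gene and 2 mitochondrial genes had groups without overlap, against 5.94% of all genes.

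The smallest p-values belonged to Lars2 and Cars2. Lars2 was 731, 522 and 666 CPM in untreated and 530, 489 and 545 in BPA EpiLCs, a change of -0.30 ± 0.14 with overlapping groups. Cars2 was 25.9, 24.9 and 29.2 CPM against 22.3, 21.9 and 24.3, a change of -0.22 ± 0.11, and its groups did not overlap. Both had an adjusted p of 0.943. Standard errors of the 36 genes ran from 0.09 to 0.21 on the log2 scale. No gene of the scaffold, amino acid response, elongation factor, amidotransferase or mitochondrial factor lists was called in this comparison either.

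In PGCLCs, where BPA-arm cells were compared with untreated ones, 2 of 36 synthetase genes were called, both lower: Dars and Lars2. The background was 13.9% of 16753 genes called, 5.72% lower and 8.13% higher, so the 5.56% of synthetase genes called lower is near the background. Cytosolic changes were small: 17 of 20 were below 0, the median was -0.10 and the range -0.20 to 0.16, against a median of 0.01 over all genes. Mitochondrial genes other than Lars2 had 8 of 15 above 0 and a median of 0.02. Groups did not overlap in 8 of 20 cytosolic genes, 7 of them lower, and in 6 of 16 mitochondrial genes, 3 of them lower, against 35% of all genes, 16.5% lower.

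Dars (chr1:128363707-128417368), the aspartate enzyme of the complex, was 214, 214 and 211 CPM in untreated PGCLCs and 191, 186 and 181 in BPA-arm PGCLCs. The groups were apart and each was narrow. The log2 change was -0.20 ± 0.05 (adjusted p = 0.0441). The call was lost when any one library other than BPA replicate 3 was left out: the adjusted p was 0.0674, 0.0812 and 0.0828 without untreated replicates 1, 2 and 3, and 0.142 and 0.189 without BPA replicates 1 and 2. It was also lost with no filter (0.0773), with the replicate number as a block (0.112) and in the fit of all 12 libraries (0.172), while the change stayed between -0.21 and -0.18 in all of these. Other complex genes had values of the same sign that did not pass, such as Eprs at -0.10 (adjusted p = 0.16) and Lars at -0.14 (adjusted p = 0.114). All 8 complex genes were below 0, with a median of -0.11. Of the 12 cytosolic genes outside the complex 9 were below 0, with a median of -0.06. The difference between these subsets was not tested here either. DESeq2 also called Eprs (adjusted p = 0.0209) and Lars (0.0386). Of the scaffold genes, Aimp1 was lower at -0.27 ± 0.06 (adjusted p = 0.0332).

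Farsa (0.16, adjusted p = 0.156), Aars (0.10, adjusted p = 0.289) and Sars (0.07) were the cytosolic genes with values above 0, and none passed. Farsa and Aars lie on chromosome 8, whose 913 tested genes had a median of 0.19 in this comparison, with 15.2% called higher. Among mitochondrial genes Wars2 came nearest to a call after Lars2: it was 9.08, 7.57 and 10.02 CPM in untreated and 14.7, 12.02 and 12.04 in BPA-arm PGCLCs, a change of 0.54 ± 0.17 (adjusted p = 0.0741). Its groups did not overlap. Cars2, also on chromosome 8, had 14.8, 16.9 and 14.0 CPM against 19.6, 19.1 and 18.6, a change of 0.33 ± 0.13 (adjusted p = 0.126).

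Markers of other cells moved with this comparison. Of 10 endoderm markers 5 were higher in BPA-arm PGCLCs and 0 lower, and their sum was 842 to 1319 CPM in untreated and 2942 to 6421 in BPA-arm PGCLCs, lowest in BPA replicate 3. Of 8 early germ cell markers 4 were lower, with sums of 1191 to 1340 against 975 to 1095 CPM. The part of these transcripts in the changes of Dars and the other synthetase genes was not tested. In the amino acid response list 5 of 23 genes were higher and 1 lower in BPA-arm PGCLCs, against 8.13% of all genes higher and 5.72% lower. The smallest p-values were those of the serine synthesis enzymes Psat1 (0.34 ± 0.05, adjusted p = 0.00598) and Psph (0.54 ± 0.10, adjusted p = 0.0129) and of Aldh18a1, an enzyme of proline synthesis (0.33 ± 0.06, adjusted p = 0.0145). Atf4 was not called in this comparison, at 0.04. Elongation factors had 3 of 6 lower, and 2 of 9 mitochondrial translation factors were lower, Gfm1 (-0.34 ± 0.08, adjusted p = 0.0261) and Gfm2 (-0.33 ± 0.08, adjusted p = 0.0404), the mitochondrial elongation and recycling factors.

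**Figure D4:**
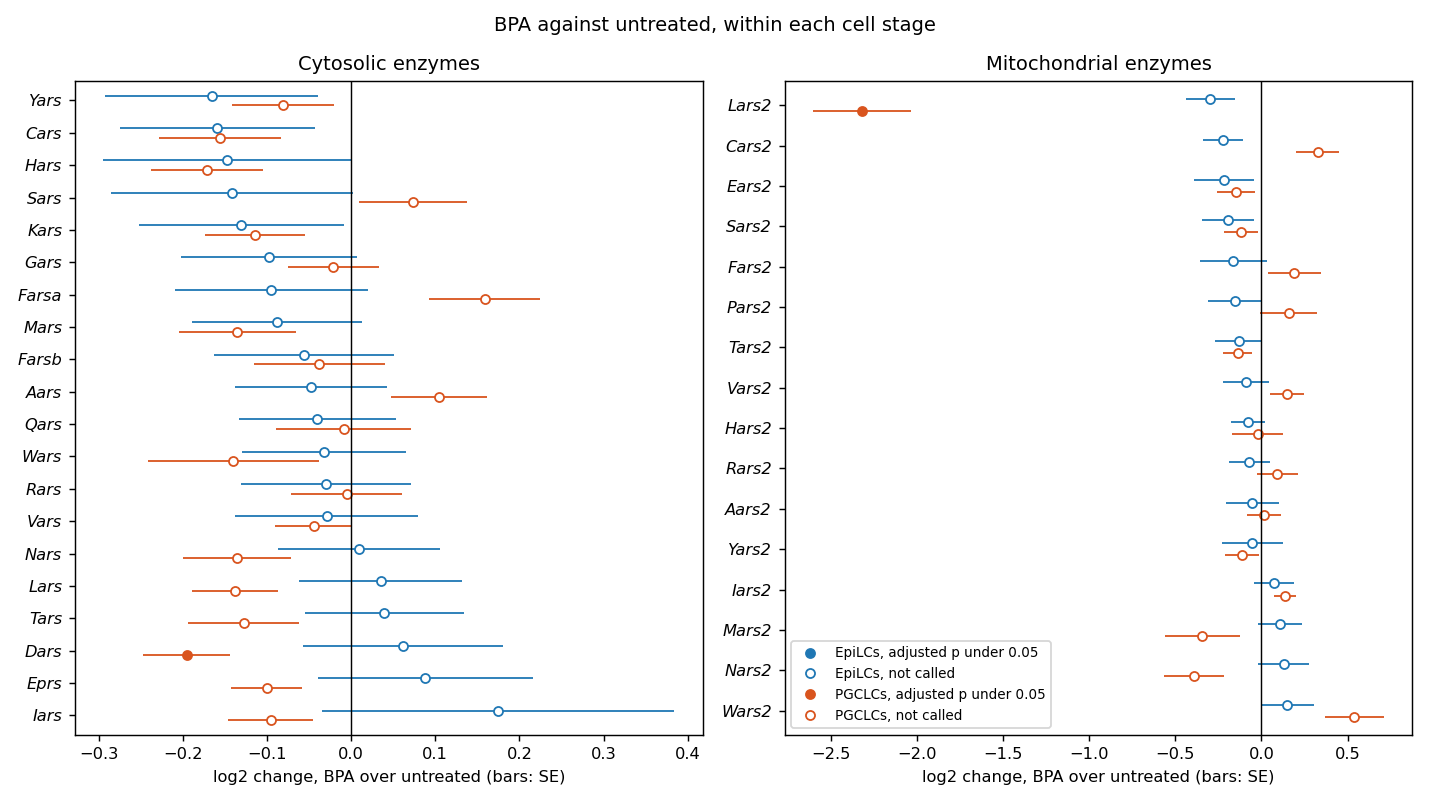
Log2 change of each gene in BPA over untreated libraries, with its SE, in EpiLCs and in PGCLCs; filled points had an adjusted p under 0.05, and the 2 panels have different x axes. Cytosolic changes lie between -0.20 and 0.17 with 1 filled point (Dars in PGCLCs), and Lars2 in PGCLCs, at -2.32, stands apart from the other mitochondrial genes.

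Lars2 (chr9:123366927-123462666, plus strand) had the largest differences of the family and is uncertain as a measure of its own messenger RNA, since reads of other repeated sequence may be counted in it. In TMM-scaled CPM of the 12-library fit it was 724, 520 and 680 in untreated EpiLCs, 526, 484 and 540 in BPA EpiLCs, 671, 495 and 530 in BPA-arm PGCLCs, and 2456, 1836 and 4233 in untreated PGCLCs. Untreated PGCLCs were above the other 9 libraries, with replicate 3 the highest, and the remaining groups lay between 484 and 724. PGCLCs over EpiLCs it changed by 2.15 ± 0.26 in untreated libraries (adjusted p = 2.56e-05) and by 0.13 ± 0.25 in the BPA arm (adjusted p = 0.677). Within PGCLCs it was 2439, 1824 and 4199 CPM in untreated and 674, 498 and 526 in BPA-arm libraries, a change of -2.32 ± 0.29 (adjusted p = 0.00313) with no overlap. Leaving out untreated PGCLC replicate 3 gave -1.92, still with the call.

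The difference between the BPA effects in PGCLCs and EpiLCs was tested as an interaction, in which 1.32% of 17608 genes were called, 0.312% lower and 1.01% higher. Lars2 was the one synthetase gene called, at -2.02 ± 0.35 (adjusted p = 0.0171). The call was lost without EpiLC BPA replicate 1 (adjusted p = 0.0553) or 3 (0.0507) or PGCLC BPA replicate 2 (0.0573), with values of -2.01, -1.99 and -1.93. Cars2 followed at 0.56 ± 0.17 (adjusted p = 0.143; 0.0348 in DESeq2), on a chromosome whose median was 0.21 in this contrast. No cytosolic gene passed, and no cytosolic gene had an unadjusted p under 0.05, against 13.9% of all genes; DESeq2 called none of them either.

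Ribosomal RNA-like transcripts were also highest in untreated PGCLCs, although they did not follow Lars2 in every comparison. Gm26917 was 190, 136 and 346 CPM in untreated EpiLCs, 164, 161 and 243 in BPA EpiLCs, 727, 536 and 936 in BPA-arm PGCLCs, and highest, at 1403, 1185 and 1318, in untreated PGCLCs. Gm15564 was 57.9, 56.1 and 506 CPM in untreated PGCLCs and 8.08 to 29.0 in all other libraries, so that its highest library was also that of Lars2. The 5.8S ribosomal RNA gene n-R5-8s1 was unlisted in all EpiLC libraries, 62.9, 78.3 and 52.1 CPM in untreated PGCLCs and 7.05, 4.16 and 4.61 in BPA-arm PGCLCs. Untreated PGCLC replicate 3, the highest library of Lars2, was the lowest of its group for n-R5-8s1. All 3 transcripts were called lower in BPA-arm than in untreated PGCLCs. In the BPA arm, PGCLCs over EpiLCs, Gm26917 was higher by 1.95 on the log2 scale (adjusted p = 0.000211), n-R5-8s1 was listed in PGCLCs only, and neither Gm15564 (-0.43, adjusted p = 0.65) nor Lars2 was called. Whether such RNA accounts for reads counted in Lars2 was not tested. Lars2 made up 75.7% to 87.4% of the summed CPM of the 16 mitochondrial genes in untreated PGCLCs and 43.2% to 52.6% in the other libraries, so sums of the mitochondrial set are given without it.

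**Figure D5:**
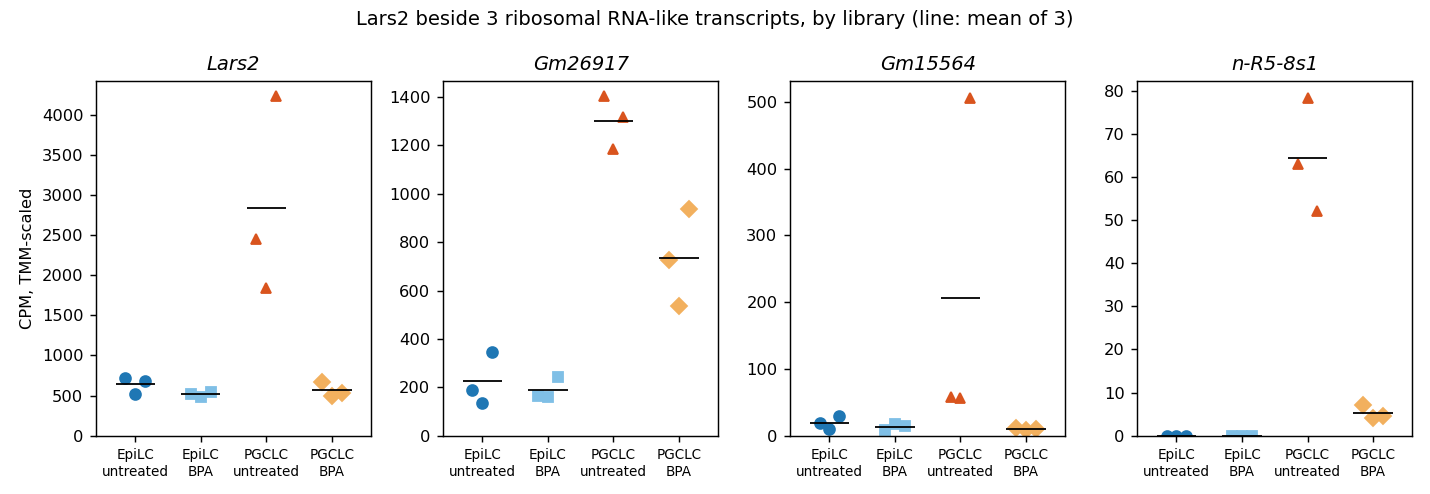
TMM-scaled CPM of Lars2 and of 3 ribosomal RNA-like transcripts in each library, each on its own axis from 0; points are libraries and lines are means of 3. The 3 untreated PGCLC libraries are the highest in every panel, and untreated PGCLC replicate 3 is far above the others in Lars2 (4233) and Gm15564 (506).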

How the data were processed

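RNA-seq of 12 libraries was analysed, 3 each of untreated and BPA EpiLCs and PGCLCs. Reads were demultiplexed with bcl2fastq 2.19.1.403, and FastQC, STAR, HTSeq and the mm10 build were used, per the submitters' processing notes, which give no other version. The deposited counts are whole reads per Ensembl gene, with no gene under 10 counts listed; unlisted genes were taken as 0. Rows without a gene (4.42% to 10.7% without a feature, 4.56% to 6.07% ambiguous) were left out. The deposited CPM tables, made by the authors separately for each stage, served only in an alternative (limma-trend on log2(CPM + 1)) within a stage. Symbols, positions and exon lengths came from GENCODE M21, which held 21695 of 21728 IDs.

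Counts were filtered with filterByExpr, TMM-scaled and tested with the edgeR 4.0.16 quasi-likelihood test (R 4.3.3) with Benjamini-Hochberg adjustment over all genes. Stage differences and the interaction used 1 fit of 12 libraries, and each BPA effect its own 6 libraries, so CPM of a library differ slightly between fits. Alternatives were other scaling, filters, DESeq2 1.42.0, limma 3.58.1, a replicate block and leaving out each library. The script was tested on simulated data. Some sequence is not reported here.

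The members and lists were chosen with earlier results of these data known. All 36 members may be named; full values are given for at most 12 called members per comparison in order of size, or for the 2 with the smallest p. From a list at most 3 called genes with the smallest p are named. Same-numbered untreated and BPA EpiLC libraries deviated together (correlations 0.155, 0.335 and 0.457), a pairing that comes from the data and is weak for replicates 1 and 2 (untreated 1 with BPA 2, 0.189; untreated 2 with BPA 1, 0.334); the block changed no member's call there.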

Additional observations from a re-analysis of the deposited data

Results flagged for a closer look

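Lars2 stood out because its difference between BPA and untreated libraries was not the same in the stages. The log2 change was more negative in PGCLCs than in EpiLCs, by -2.02 (edgeR interaction, adjusted p = 0.0171). That call was lost without EpiLC BPA replicate 1 (adjusted p = 0.0553) or 3 (0.0507), or PGCLC BPA replicate 2 (0.0573). A batch of libraries cannot be told apart from BPA in PGCLCs. Within the stages the change of Lars2 was -2.32 in PGCLCs, with 3 of 3 BPA-arm libraries below all untreated ones. In EpiLCs it was -0.30, and the groups of Lars2 overlapped. Its highest library, untreated PGCLC replicate 3, was also the highest for the ribosomal RNA-like transcript Gm15564, while replicate 1 was the highest for Gm26917 and replicate 2 for n-R5-8s1.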

How the results depend on the processing

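The cytosolic medians of both stage comparisons stayed below 0 in each setting and with each library left out (-0.54 to -0.40 over the settings). Among the 36 genes in 5 comparisons, 6 results lost their call and 12 gained one in some setting. Iars, uncalled in the untreated stage comparison, turned to -0.18 without untreated EpiLC replicate 3. With unlisted genes as 9 counts, 1 cytosolic gene was higher in that comparison and 515 genes passed the interaction; the 6 untreated libraries alone gave 1 mitochondrial gene higher. DESeq2 called 16 genes for BPA in EpiLCs, 3 cytosolic genes lower for BPA in PGCLCs, and in the interaction 1 mitochondrial gene higher and 900 genes in all, against 232 with edgeR and 141 with limma-voom. For BPA in PGCLCs, 0 cytosolic genes were lower with no filter and in the fit of 12 libraries. The PGCLC replicate numbers share only a number (correlations 0.03, -0.04 and -0.08, and not every library correlated best with its own number): with the replicate block 1618 genes were called against 2321, 0 of them cytosolic synthetases (Dars, adjusted p = 0.112), and the interaction called 150. The block changed no other call.

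Leaving out 1 library gave these ranges. In the untreated stage comparison 0 to 1 cytosolic genes were higher and the mitochondrial median was -0.37 to -0.12; in the BPA arm 0 to 1 cytosolic genes were higher. For BPA in PGCLCs 0 to 1 cytosolic genes were lower, 668 to 3206 genes were called (668 without BPA replicate 2, 3206 without BPA replicate 3) and the mitochondrial median was -0.067 to 0.025. In the interaction 83 to 767 genes were called, 0 to 1 mitochondrial genes were lower and the mitochondrial median was 0.012 to 0.18. The causes were not tested. With no filter, the median of all genes in the untreated stage comparison was 0.20 in place of 0.07. In the untreated stage comparison the SE of Wars2 and Pars2, near 10 CPM, was 0.17 each, which limits what can be shown for them. The SE did not follow level alone: among genes with higher levels it was 0.07 for Lars, 0.16 for Iars and 0.26 for Lars2.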
